A study of Homo sapiens with 6 samples.

Results

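The COMMD family is a set of 10 human genes, COMMD1 to COMMD10, whose proteins share a COMM domain at their carboxyl end. The members were taken by symbol, and all 10 were found among the 26485 gene symbols of the count tables. All 10 also had enough reads to be tested, as did 13632 genes in all. RNA came from AF22, an established human line of neural stem cells made from induced pluripotent cells. The 3 control libraries are from AF22 cells labelled wild type that carried a control short hairpin RNA (shControl). The 3 knockdown libraries are from AF22 cells labelled COMMD3/COMMD3-BMI1 knockdown, and the sources used here do not describe the reagent, the time after its delivery, or whether the replicates were separate cultures. P-values therefore measure only how far these libraries differ among themselves, a spread that may be technical.

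COMMD proteins assemble with each other into a ring, which joins the coiled-coil proteins CCDC22 and CCDC93 and a trimer of VPS35L, VPS26C and VPS29 called Retriever, with DENND10 as a further subunit. The whole assembly is called Commander, and it returns membrane proteins such as integrins and lipoprotein receptors from endosomes to the cell surface. Purified COMMD proteins form smaller groups, in which COMMD3 is found with COMMD2, COMMD4 and COMMD8. Loss of a subunit protein is known to lower other COMMD proteins in several cell lines. The counts bear on RNA alone, and the comparison asks whether the other COMMD transcripts differed between cells with less COMMD3 RNA and control cells.

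The family is spread over the genome, on 10 different chromosomes of GRCh38. Coordinates below are those of GENCODE v29 on that build, which is the build named for the files (hg38). COMMD3 (ENSG00000148444) occupies bases 22315974 to 22320308 of chromosome 10, plus strand. COMMD2 (ENSG00000114744) lies on chromosome 3 from 149738470 to 149752499, on the minus strand. COMMD4 (ENSG00000140365) occupies bases 75335891 to 75343224 of chromosome 15, plus strand. COMMD8 (ENSG00000169019) lies on chromosome 4 from 47450796 to 47463719, on the minus strand. COMMD1 (ENSG00000173163) covers 258524 bases of chromosome 2 from 61888724, and COMMD10 (ENSG00000145781) covers 327772 bases of chromosome 5 from 116084991, both on the plus strand. COMMD6 (ENSG00000188243) lies on chromosome 13 from 75525219 to 75549439, COMMD9 (ENSG00000110442) on chromosome 11 from 36269284 to 36289449, and COMMD7 (ENSG00000149600) on chromosome 20 from 32702691 to 32743997, each on the minus strand. COMMD5 (ENSG00000170619) is on the minus strand of the remaining chromosome. Their longest protein-coding transcripts have between 2 and 9 exons, and the exons of their protein-coding transcripts cover between 911 bases (COMMD1) and 3706 bases (COMMD2).

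The labelled target comprises COMMD3 and COMMD3-BMI1, a readthrough gene that joins exons of COMMD3 to those of its downstream neighbour BMI1, a subunit of polycomb repressive complex 1. COMMD3 has exon bases that the readthrough lacks, whereas the readthrough is set apart by its junction into BMI1. Both junctions are given here because a count per gene does not show them. Both transcripts leave the same COMMD3 exon at base 22319018. The COMMD3 transcript then enters its own last exon at base 22319939, and the readthrough enters a BMI1 exon at base 22326431. Lower case marks the last 15 bases of the shared COMMD3 exon and capitals mark the first 15 bases of the exon that follows, both from the GENCODE v29 transcripts.
COMMD3: atggaacaattacagGACTTGGTGGGGAAA
COMMD3-BMI1: atggaacaattacagGATTTTTTATCAAGC

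COMMD3-BMI1 had 0 counts in all 6 libraries. All 1419 of its annotated exon bases belong as well to COMMD3 (419) or BMI1 (1000), so only junctions such as the one above set it apart, and a gene count does not show them. The zero is therefore a listed value and not a measured level. COMMD3 has 923 of its 1342 exon bases outside the readthrough. How reads in the other 419, or in the 1000 that BMI1 shares with the readthrough, were counted is not given in the sources used here. Fewer cells with COMMD3 RNA and less COMMD3 RNA per cell cannot be told apart in these bulk samples.

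COMMD3 RNA was lower in every knockdown library. Its level was 31.7, 29.7 and 27.6 CPM (a gene's counts relative to the TMM-adjusted library size) in control replicates 1 to 3, and 12.9, 11.3 and 10.5 CPM in knockdown replicates 1 to 3. The groups were far apart, with the highest knockdown library at less than the lowest control library. COMMD3 was 2.58-fold lower, a log2 fold change of −1.37 (SE 0.0996, 95% interval −1.57 to −1.17, edgeR quasi-likelihood adjusted p = 2.34e-12, n = 3 each). The fitted level left in knockdown was 38.7% of control. BMI1, which was not called, averaged 110.2 ± 2.41 CPM over the control libraries and 104.8 ± 1.79 CPM over the knockdown libraries (SD, n = 3 each; log2 fold change −0.07, 95% interval −0.17 to 0.02, edgeR adjusted p = 0.206). Its 3 knockdown libraries, at most 106.7 CPM, were all below its lowest control library at 108.6 CPM. Among all tested genes, 22.7% had all knockdown libraries below all control libraries.

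None of the other 9 COMMD transcripts was called lower beside COMMD3. By edgeR, COMMD2, COMMD6, COMMD7 and COMMD10 rose by small amounts, and COMMD1, COMMD4, COMMD5, COMMD8 and COMMD9 did not pass the test. Of the 9, 4 were called higher and 0 lower. Across all tested genes, 15.3% were called higher and 18.1% lower, or 33.3% in either direction, so calls were common in these cells. The median log2 fold change of the 9 was 0.11, beside 0.002 for all 13632 tested genes. With each library's trend on gene length and GC content removed, these medians were 0.029 and −0.011. The 95% intervals of the 9 together reached from 0.849-fold to 1.29-fold of control, whereas that of COMMD3 ran from 0.336-fold to 0.445-fold. DESeq2 kept COMMD2 alone among those that rose.

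**Figure D1:**
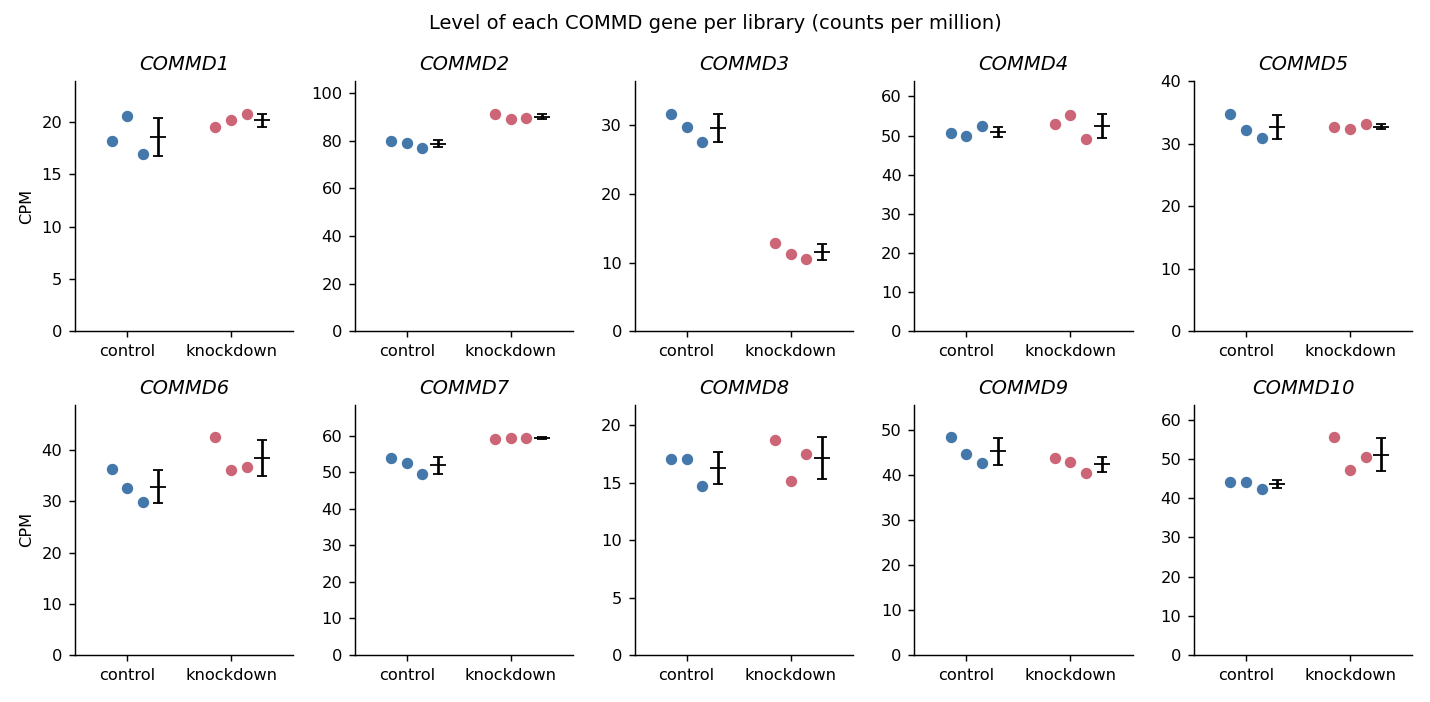
CPM of each COMMD gene in the 3 control (blue) and 3 knockdown (red) libraries, in the order of the replicate numbers, with the mean and SD of each group in black. COMMD3 drops from between 27.6 and 31.7 CPM to between 10.5 and 12.9 CPM, COMMD2, COMMD7 and COMMD10 sit slightly higher in all 3 knockdown libraries, and the groups of the other 6 genes overlap.

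Of the proteins found in purified groups with COMMD3, COMMD2 showed the most stable difference in RNA. COMMD2 had 79.8, 79.2 and 77.1 CPM in the control libraries and 91.3, 89.3 and 89.7 CPM in the knockdown libraries. The 2 groups did not overlap, and each spanned under 3 CPM. COMMD2 rose by 0.19 on the log2 scale (SE 0.0470, 95% interval 0.10 to 0.29, edgeR adjusted p = 0.0019), or 1.14-fold, and passed in all 17 other analyses, with adjusted p between 4.52e-04 and 0.0238.

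COMMD4 and COMMD8, the other members of that group, had libraries that overlapped between the conditions. COMMD4 had 50.7, 49.8 and 52.4 CPM in control and 53.0, 55.3 and 49.1 CPM in knockdown (log2 fold change 0.04, 95% interval −0.08 to 0.16, edgeR adjusted p = 0.634). Its knockdown libraries held both the lowest and the highest value of the 6. COMMD8, which acts with COMMD3 as an adaptor for chemokine receptors in B cells, had 17.1, 17.0 and 14.7 CPM in control and 18.7, 15.1 and 17.5 CPM in knockdown. Its log2 fold change was 0.07 (95% interval −0.15 to 0.28, edgeR adjusted p = 0.674). COMMD8 had the lowest CPM of the members other than COMMD3, and its interval still lay above the whole interval of COMMD3.

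COMMD1 and COMMD6 are found with COMMD4 and COMMD8 in another purified group. COMMD1, known for copper transporter sorting and for restraint of NF-kB, had 18.1, 20.6 and 17.0 CPM in control and 19.5, 20.1 and 20.8 CPM in knockdown (log2 fold change 0.11, 95% interval −0.08 to 0.31, edgeR adjusted p = 0.383). Control replicate 2 lay among the knockdown libraries. COMMD6, the smallest protein of the family, had 36.3, 32.6 and 29.8 CPM in control and 42.5, 36.1 and 36.7 CPM in knockdown. It rose by 0.21 on the log2 scale (SE 0.0785, 95% interval 0.05 to 0.37, edgeR adjusted p = 0.0389), although control replicate 1 lay above knockdown replicate 2. The call was lost without knockdown replicate 1 (log2 fold change 0.13, adjusted p = 0.254), control replicate 2 (0.20, adjusted p = 0.0956) or control replicate 3 (0.16, adjusted p = 0.16). DESeq2 did not call it (adjusted p = 0.142), nor did edgeR once each library's trend on gene length and GC content was removed (adjusted p = 0.0836).

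COMMD5, COMMD7, COMMD9 and COMMD10 form the remaining purified group. As in the other groups, edgeR called some members and not others, and differences between members were not tested. COMMD10 had 44.2, 44.2 and 42.3 CPM in control and 55.5, 47.1 and 50.4 CPM in knockdown. The groups did not overlap, but the knockdown libraries spread more widely than the control libraries. COMMD10 rose by 0.23 on the log2 scale (SE 0.0646, 95% interval 0.09 to 0.36, edgeR adjusted p = 0.00728), or 1.17-fold, the largest fitted rise of the family. Without knockdown replicate 1, its highest library, the difference was 0.17 and no longer passed (adjusted p = 0.0786), nor did it by DESeq2 (adjusted p = 0.0592).

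COMMD7, which has been described as an NF-kB regulator, had 53.9, 52.7 and 49.5 CPM in control and 59.1, 59.5 and 59.6 CPM in knockdown. All 3 knockdown libraries were above the control libraries and lay within 1 CPM of each other. COMMD7 rose by 0.18 on the log2 scale (SE 0.0562, 95% interval 0.07 to 0.30, edgeR adjusted p = 0.0119), or 1.14-fold, and did not pass by DESeq2 (adjusted p = 0.0869) or after that trend was removed (log2 fold change 0.12, adjusted p = 0.0817). Of its exon bases, 34.6% are also annotated to FO393400.1, a longer gene on the same strand, so part of its reads could belong to that gene.

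COMMD9, known for endosomal sorting of Notch, had 48.4, 44.7 and 42.6 CPM in control and 43.8, 43.0 and 40.5 CPM in knockdown. Its log2 fold change of −0.10 was the lowest of the 9 (95% interval −0.24 to 0.03, edgeR adjusted p = 0.231), and the groups overlapped. With the length and GC trend removed, COMMD9 was called lower (log2 fold change −0.16, adjusted p = 0.0428). COMMD5 had 34.8, 32.2 and 31.0 CPM in control and 32.7, 32.4 and 33.1 CPM in knockdown, all knockdown libraries lying inside the control range. Its fitted log2 fold change was −0.01 (95% interval −0.16 to 0.14, edgeR adjusted p = 0.953), while its group means were 32.66 and 32.72 CPM.

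The groups did not overlap for COMMD2, COMMD7 and COMMD10, which is 3 of the 9 members other than COMMD3, and all 3 were higher in knockdown. Among all tested genes, 21.6% had all knockdown libraries above all control libraries, and 22.7% had them below, 44.3% in all. The fitted sizes of the 4 rises, from 0.18 to 0.23 on the log2 scale, were below the median absolute size of 0.267 among called genes.

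**Figure D2:**
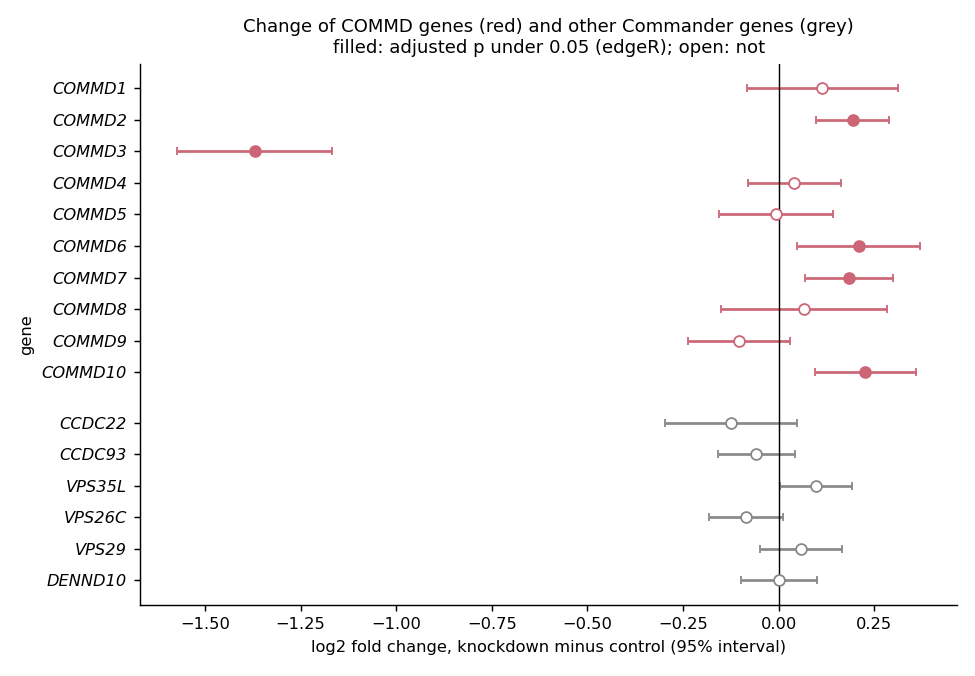
Log2 fold change of knockdown over control for the 10 COMMD genes (red) and the 6 other Commander genes (grey), with 95% intervals from the edgeR fit; filled points passed an adjusted p of 0.05. COMMD3 stands at −1.37, apart from all others, whose fitted values lie between −0.13 and 0.23.

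**Figure D3:**
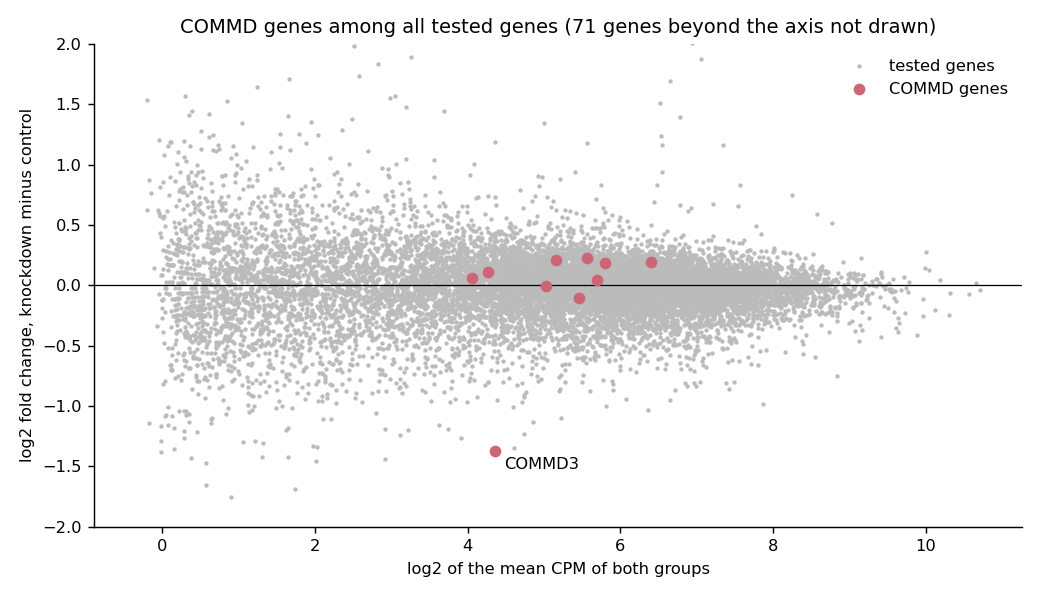
Log2 fold change of each tested gene (grey) against the log2 of its mean CPM, with the COMMD genes in red; 71 genes beyond 2 on the log2 scale are not drawn. COMMD3 lies at the lower edge of the cloud, where its absolute change exceeded that of 99.2% of tested genes, and the other 9 lie within its centre.

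Summed over the 9 members other than COMMD3, the family total was somewhat higher in knockdown. The sum was 383.1, 373.0 and 356.3 CPM in the control libraries and 416.0, 397.8 and 397.3 CPM in the knockdown libraries. No knockdown library was as low as any control library, and the mean moved from 370.8 ± 13.5 to 403.7 ± 10.7 CPM (SD, n = 3 each), an increase of 8.88%. With the length and GC trend removed, a check added after the data were seen, the sums were 378.5 ± 5.88 and 395.4 ± 3.50 CPM, an increase of 4.44%. With COMMD3 included and each gene divided by its exon length, the total was 219.6 ± 8.08 CPM per kilobase in control and 223.0 ± 6.25 in knockdown, a difference within the spread of the libraries. The control sums were highest in the deepest control library (11579849 counts) and lowest in the shallowest (7294687 counts). Knockdown libraries had between 8574066 and 9692967 counts, and the part of depth in these sums was not tested. Without control replicate 3, the shallowest, the ratio of the CPM sums of the 9 members was 1.068 in place of 1.089.

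Levels of different members can be compared only per length. Over full exon lengths, COMMD4 was the most abundant in control cells at 42.5 ± 1.10 CPM per kilobase of exon. COMMD8 was the least abundant, at 11.1 ± 0.923 (SD, n = 3 each for both). COMMD4 was above COMMD7, the next in order, in all 6 libraries. COMMD7 shares 658 exon bases with FO393400.1, and how reads there were counted is not given. Its level over its other exon bases, which could change this order, was not computed. COMMD7 at 27.4 ± 1.201 and COMMD10 at 27.2 ± 0.684 CPM per kilobase could not be ordered, since COMMD7 was above COMMD10 in 3 of the 6 libraries.

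Over its full exon length, COMMD3 held the fourth place in control and the last in knockdown. It had 22.1 ± 1.52 CPM per kilobase in control, close to COMMD2 at 21.2 ± 0.385 and COMMD1 at 20.4 ± 2.02, and the control libraries of these 3 genes overlapped. In knockdown it had 8.61 ± 0.906 CPM per kilobase, below COMMD8 at 11.7 ± 1.25. Its share of the summed family level went from 10.1% ± 0.339 to 3.86% ± 0.299 (SD, n = 3 each).

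At the lower end of the control order, COMMD5 had 16.9 ± 1.01, COMMD6 15.7 ± 1.54 and COMMD9 15.2 ± 0.979 CPM per kilobase, and these 3 neighbours overlapped too. Over full exon lengths, the gaps that no control library crossed were those above COMMD7, COMMD3, COMMD5 and COMMD8. The order depends on the length used: per kilobase of the longest transcript, COMMD5 averaged 20.8 in control, above COMMD1 at 20.4, and COMMD10 averaged 29.7, above COMMD7 at 27.4. If only the exon bases outside the readthrough gave COMMD3 counts, its control level would be 32.1 ± 2.21 CPM per kilobase, which would put it in the second place. Its knockdown level would then be 12.5 ± 1.32, above the mean of COMMD8 by less than the SD of either.

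**Figure D4:**
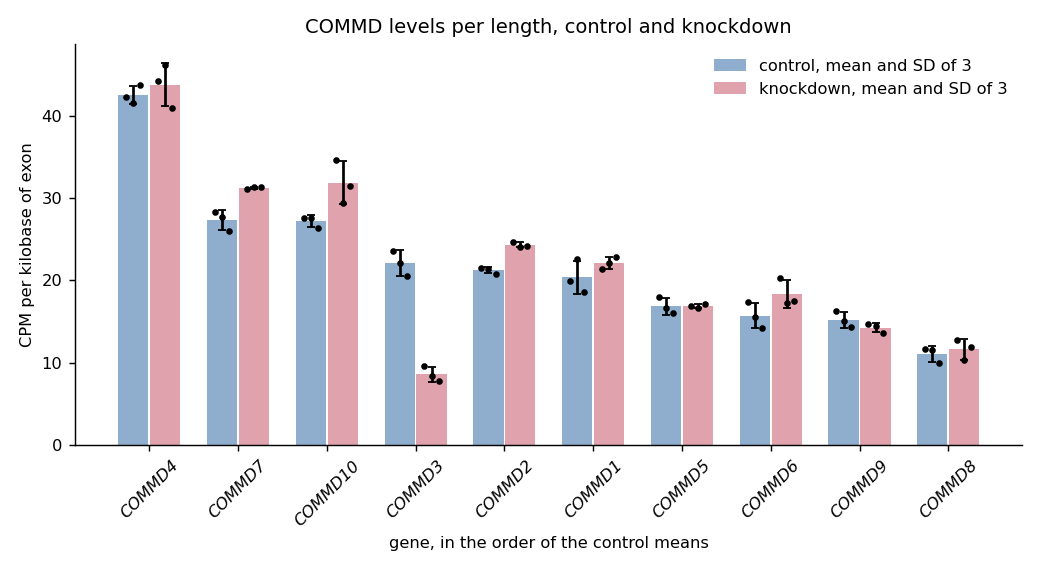
CPM per kilobase of exon for the 10 COMMD genes in the order of the control means; bars are means of 3 libraries, error bars SD and points single libraries, control in blue and knockdown in red. Over full exon lengths, COMMD3 goes from 22.1 to 8.61 CPM per kilobase, while COMMD4 stays first and COMMD8 stays the lowest of the others.

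The 6 other Commander subunits showed no called difference. By edgeR, 0 of the 6 passed, 1 had an unadjusted p under 0.05, and DESeq2 and limma-voom also called 0, beside 33.3% of all tested genes called by edgeR. VPS35L, the scaffold of Retriever (listed as C16orf62), had 109.6, 111.3 and 117.7 CPM in control and 116.4, 121.7 and 123.2 CPM in knockdown, the member with the unadjusted p of 0.0406 (log2 fold change 0.10, edgeR adjusted p = 0.099). It passed without control replicate 3 (adjusted p = 0.0478) and with library-size scaling (adjusted p = 0.0359). VPS26C (listed as DSCR3) averaged 92.98 ± 2.09 CPM over control and 87.83 ± 3.03 CPM over knockdown libraries (SD, n = 3 each; edgeR adjusted p = 0.167), and was called lower after removal of the length and GC trend (adjusted p = 0.0344).

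The coiled-coil subunits CCDC22 and CCDC93, which link the COMMD ring to Retriever, had fitted log2 fold changes of −0.13 (95% interval −0.30 to 0.05) and −0.06 (95% interval −0.16 to 0.04). VPS29, which retromer shares, had one of 0.06 (95% interval −0.05 to 0.17). DENND10 (listed as FAM45A) averaged 78.5 ± 2.22 CPM over control and 78.3 ± 1.10 CPM over knockdown libraries (SD, n = 3 each), the smallest absolute change of the 6. Of the 50-base words in its longest transcript, 39.0% also occur in transcripts of other genes, mostly its processed copy FAM45BP, so its count is less certain. All 6 intervals together reached from 0.814-fold to 1.14-fold of control.

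Genes of proteins that COMMD proteins sort or bind moved in both directions. Of 28 listed genes, 26 were tested, of which 4 rose, 6 fell and 16 did not pass by edgeR, with a median log2 fold change of 0.005. Among all tested genes, 15.3% were called higher and 18.1% lower, 33.3% in all. Calls in the list were near these shares, so the genes named below do not set it apart from other genes. SNX31 had 0 counts in every library.

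Among cargoes and receptors, SLC12A2, a chloride cotransporter whose trafficking COMMD1 affects, had 243.3, 231.1 and 232.6 CPM in control and 177.4, 180.5 and 173.2 CPM in knockdown. The groups were well apart, and it fell by 0.41 on the log2 scale (SE 0.0431, edgeR adjusted p = 6.12e-09). NOTCH1, a receptor sorted with COMMD9, had 159.7, 160.3 and 161.4 CPM in control and 105.3, 120.1 and 129.7 CPM in knockdown, and fell by 0.44 (edgeR adjusted p = 1.08e-07). CXCR4, a chemokine receptor handled by COMMD3 and COMMD8 in B cells, was low in these cells, at 5.88 ± 0.283 CPM over control and 3.32 ± 0.47 CPM over knockdown libraries (SD, n = 3 each), and fell (log2 fold change −0.82, 95% interval −1.19 to −0.44, edgeR adjusted p = 8.21e-04). EGFR, a growth factor receptor, fell from 40.0 ± 3.06 to 25.8 ± 5.62 CPM (edgeR adjusted p = 1.03e-05).

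The endocytic receptor LRP1 fell by 0.17 (edgeR adjusted p = 0.0167). Its call was lost without knockdown replicate 1 (log2 fold change −0.08, adjusted p = 0.27), control replicate 2 (adjusted p = 0.0564) or control replicate 3 (adjusted p = 0.072), and by DESeq2 (adjusted p = 0.241). ITGA5, an integrin chain of the fibronectin receptor, rose by 0.19 (edgeR adjusted p = 0.006), a call lost without control replicate 1 (log2 fold change 0.14, adjusted p = 0.0704) or knockdown replicate 3 (log2 fold change 0.13, adjusted p = 0.0701).

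Of the adaptors and binding partners, SNX17, the sorting nexin that brings cargo to Commander, had 125.5, 125.7 and 124.6 CPM in control and 143.3, 144.3 and 138.8 CPM in knockdown. It rose by 0.18 on the log2 scale (SE 0.0433, edgeR adjusted p = 0.00156), with no overlap between groups, and passed in all 17 other analyses. CUL4A, a cullin scaffold of ubiquitin ligases, rose from 107.4 ± 1.07 to 123.2 ± 2.46 CPM (SD, n = 3 each; edgeR adjusted p = 8.14e-04). It was the 1 cullin called of 6, beside 33.3% of all tested genes called. CUL1 and CUL3 did not pass (edgeR adjusted p = 0.0726 and 0.125). Their knockdown libraries were all below their control libraries, as in 22.7% of all tested genes. NFKB1, an NF-kB subunit, fell from 48.16 ± 0.477 to 39.76 ± 0.219 CPM (edgeR adjusted p = 7.39e-04). RELA, the NF-kB subunit that COMMD1 binds, rose by 0.13 (edgeR adjusted p = 0.0387). The RELA call was lost without control replicate 1 (log2 fold change 0.08, adjusted p = 0.283), knockdown replicate 1 (log2 fold change 0.13, adjusted p = 0.0757) or knockdown replicate 3 (log2 fold change 0.11, adjusted p = 0.106), and DESeq2 did not make it (adjusted p = 0.169).

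The genes whose pattern over the 6 libraries was nearest to COMMD3, by Euclidean distance between log2 CPM centred on each gene's mean, were GNG4, EGR2, CPNE4, ZDHHC22 and SSFA2, at distances from 0.328 to 0.518. GNG4, a G protein subunit, fell from 34.87 ± 2.5 to 13.82 ± 1.72 CPM (SD, n = 3 each), and SSFA2 from 309.8 ± 6.98 to 156.8 ± 1.76 CPM. The log2 fold changes of the 5 lay between −1.43 (ZDHHC22) and −0.98 (SSFA2). None of the 10 COMMD genes was a candidate in this search, and the likeness rests largely on the difference between the 2 groups.

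Promoter windows of RefSeq (GRCh38.p14, 250 bases before to 50 after each start) were used, but those on the chromosome of COMMD5 were left out. The 9 other COMMD genes had 14 windows. COMMD3 and COMMD3-BMI1 share 1 window. It holds 53 CpG dinucleotides, with 77.0% G and C. Its observed over expected CpG ratio of 1.198 exceeded that of 99.4% of all windows searched. BMI1 has 2 windows of its own further downstream. The core of the interferon response element, GAAA and a second GAAA with any 2 bases between them, was searched on both strands because interferon genes moved strongly here. It was found in 1 of the 14 COMMD windows (COMMD4) and in 3.57% of all 35116 windows searched. The letters TATAAA were found in 1 COMMD window (COMMD10) and in 11.53% of all windows searched. Such matches are descriptions of letters in these windows.

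Some other features of the libraries differed between the groups. All 10 genes of an interferon response list rose, with a summed level of 148.9 to 153.3 CPM in control and 2134 to 2485 CPM in knockdown. The neural stem cell markers SOX1, SOX2, PAX6, NES, VIM, MSI1 and FABP7 were all expressed, with a sum of 2283 to 2439 CPM in control and 2344 to 2422 CPM in knockdown. These sums overlapped between the groups. By edgeR, SOX2 fell, MSI1 rose and the other 5 did not pass, beside 33.3% of all tested genes called in either direction. The libraries of MSI1 overlapped between the groups, and DESeq2 did not call it (adjusted p = 0.099). STMN2, GFAP, SOX10 and CD3E, which mark neurons, astrocytes, the oligodendrocyte lineage and T cells, had 0 counts in all 6 libraries. Of the pluripotency markers LIN28A rose and POU5F1 fell, with a sum of 358.4 to 367.6 CPM in control and 474.2 to 519.9 CPM in knockdown. The astrocyte list, led by S100B, summed to 72.9 to 76.8 CPM in control and 46.2 to 55.2 CPM in knockdown. The fibroblast list, led by COL1A1, summed to 68.98 to 75.94 CPM in control and 78.11 to 94.94 CPM in knockdown. COL1A1 rose, whereas COL1A2 and DCN did not pass. The part of these differences in the COMMD values was not tested. Single members had between 97 and 924 counts in a library.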

How the data were processed

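RNA sequencing counts from 3 control and 3 knockdown libraries were analysed, and the titles gave the groups. Libraries were made from total RNA with a strand-preserving kit, per the labels' protocols. Per the submitters' processing notes, Trim Galore 0.6.6, STAR 2.7.10a, bedtools and build hg38 were used. The sources used here do not give the counting step, its strand setting or the annotation. The authors deposited raw read counts per gene symbol, with totals of 7294687 to 11579849 per library.

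Genes were filtered with filterByExpr, scaled by TMM and tested by the edgeR 4.0.16 quasi-likelihood test (R 4.3.3) over all 6 libraries with no covariate, with Benjamini-Hochberg adjustment over 13632 genes and a threshold of 0.05. The SE is the size of the log2 fold change divided by the square root of F. The script was tested on simulated data. Members, partner lists and tests were chosen with earlier results of these data known. The text names all members, all Commander subunits, called partner genes and the 5 patterns nearest to COMMD3 (mean CPM of 5 or more, prior count of 2). Exon lengths cover protein-coding transcripts of the GENCODE v29 basic set.

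The 17 other analyses were 3 scalings, 2 filters, DESeq2 1.42.0, limma-voom (limma 3.58.1), the replicate number as a block, removal of each library's loess trend on length and GC content (span 0.5, known for 94.3% of tested genes) without and with that block, leaving out each of 6 libraries, and an adjusted p under 0.01. Replicate pairs differed by more than sampling noise (chi-square per degree of freedom 1.23 to 1.994). Figures used Matplotlib 3.10.9. Some genes of the marker and partner lists are not reported here.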

Additional observations from a re-analysis of the deposited data

How the results depend on the processing

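COMMD3 (log2 fold change −1.454 to −1.298) and COMMD2 (0.176 to 0.214) kept direction and call in all 17 other analyses. DESeq2 called 2 members, without COMMD6 (0.219), COMMD7 (0.189) and COMMD10 (0.229), and 2743 genes in all (1100 higher) against 4545. At an adjusted p under 0.01, 3 members passed, without COMMD6 (0.21) and COMMD7 (0.184). With the length and GC trend removed, COMMD6 (0.155) and COMMD7 (0.121) were lost, COMMD9 passed (−0.159), COMMD4 became −0.049, CCDC93 0.001, VPS29 −0.005 and DENND10 −0.058. With this and the replicate block, COMMD7 was 0.122, COMMD9 −0.150, COMMD4 −0.049, VPS29 −0.004 and DENND10 −0.061. Each of these 2 analyses called 1 Commander subunit, as did library-size scaling. COMMD5 was 0.003 with upper-quartile and 0.013 with library-size scaling. Leaving out 1 library at a time gave 3 to 5 members, 0 to 1 Commander subunits, and values of −0.036 to 0.048 for COMMD5, 0.134 to 0.297 for COMMD6, −0.001 to 0.142 for COMMD8, 0.165 to 0.277 for COMMD10 and −0.026 to 0.017 for DENND10. The cause of these changes was not tested.

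With the longest transcript as length, control levels were 47.8 (COMMD4), 20.8 (COMMD5), 18.3 (COMMD6) and 29.7 (COMMD10) CPM per kilobase. Over exon bases outside the readthrough, an analysis added after the data were seen, COMMD3 had 32.1. Whether the replicate numbers pair the libraries was left unsettled. Deviations of same-numbered libraries correlated weakly, at 0.079, 0.005 and 0.071, and those of differently numbered libraries at −0.104 to 0.039. Control replicate 2 correlated best with another number. The replicate block called the same number of members, 5, and 2458 genes higher and 2790 lower, against 2084 and 2461 without it. The members with few counts, COMMD8, COMMD3 and COMMD1, have the widest intervals.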
